A study of Mus musculus with 59 samples.

Results

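CTCF sites in gene deserts are described here as the CTCF peaks of mouse embryonic stem cells (ESCs) that lay more than 200 kb from the span of every protein-coding gene in the RefSeq annotation of GRCm38. There were 4374 such sites among 83173 wild-type ESC peaks (5.26%, Wilson 95% interval 5.11 to 5.41). Peaks inside a protein-coding span numbered 46073 (55.4%), and the other 32726 lay outside spans but within 200 kb of one. The sites were chosen by the position of wild-type ESC peaks, a measured list, and by the annotation, so the presence of a site in that list is no result. A peak of any other list was counted at a site when the intervals overlapped by at least 1 bp.

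CTCF is a zinc-finger protein that stops the loop-extruding cohesin complex and so anchors chromatin loops and the borders of topological domains. Gene deserts are long stretches without protein-coding genes. Many of them flank developmental regulators and hold enhancers that act over long distances, and CTCF sites within them can form the ends of the loops that bring such enhancers to a promoter. SMARCA5 (SNF2H) is the ATPase of ISWI remodelling complexes, which slide and space nucleosomes, and it is known to keep nucleosomes ordered around bound CTCF.

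The series mapped CTCF by chromatin immunoprecipitation and sequencing while fibroblasts were reprogrammed to pluripotency, and in ESCs of the E14 line. Of 59 samples, 31 were immunoprecipitations that gave 15 lists of CTCF peaks and 1 of SMARCA5 peaks, and 28 were input DNA without a list. The reprogrammed cells were mouse embryonic fibroblasts (MEFs) that carry the Oct4-GFP reporter OG2. For the day 10 lists they received retroviral Oct4, Sox2, Klf4 and c-Myc (OSKM) alone, OSKM with retroviral Ctcf, or OSKM with Ctcf and an shRNA against Smarca5. For the sorted lists, MEFs received a doxycycline-inducible lentiviral OSKM cassette and an shRNA against luciferase (control) or Ctcf. These cells were Thy1+ on days 3 and 9, SSEA1- Thy1- on days 6 and 9, SSEA1+ on days 6 and 9, and Oct4-GFP+ on day 12, and day 0 cells carried the same shRNAs. The Smarca5 knockout ESCs were made with paired Cas9-nickase guides. SMARCA5 was mapped in ESC clones that overexpress a biotinylated, Flag-tagged protein together with the BirA ligase, so the list describes tagged protein above the natural level. The 1 to 3 samples of a group shared 1 list, so no difference between lists could be set against the spread between cultures, and the 95% intervals given throughout cover counting error only. Depth per sample is unknown, and a peak list holds no mRNA, so neither the targeted genes nor cell type markers could be checked. The Thy1+ lists need care. The description of the day 3 sample titled as control ties it to the Ctcf shRNA list, and that of the day 3 sample titled as Ctcf shRNA ties it to the control list. The Thy1+ lists were taken as their names and their day 9 samples have it, and each may pool 1 control and 1 shRNA sample.

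The lists differed in ways that touch the results below. The wild-type, knockout and SMARCA5 lists from ESCs used one set of interval positions, so that 100% of the desert sites they shared had the same start, against 0.836% of those shared with the day 0 control list, 2.90% with the day 10 OSKM list and 5.10% with the day 12 control list. Lists also differed in length, from 28838 peaks in the day 0 control to 89567 in the knockout ESCs, and a short list lowers the share of sites found in it whatever their position. The rule counts protein-coding genes, and immunoglobulin and T-cell receptor segments have their own classes in RefSeq. As a result 130 of the desert sites lay within 200 kb of such segments, in 3 intervals. Those described here were between Adam6a and Zfp386 on chromosome 12 (the immunoglobulin heavy chain locus, 50 sites) and between Gm36448 and Dad1 on chromosome 14 (the T-cell receptor alpha and delta locus, 24 sites). They were kept as members, and the results were recomputed with these segments counted as genes.

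A genome sequence was not used here. Sequence could be shown only where a desert site overlapped the RefSeq promoter window of an annotated long non-coding RNA (lncRNA). These windows (GRCm38.p6) ran from 250 bases before to 50 after the start, so a site could overlap one without covering the start. Of 1054 such windows more than 200 kb from protein-coding genes, 28 held a CTCF site (2.66%), against 8.54% of the windows of other lncRNAs and 19.1% of those of protein-coding genes. The 8-letter motif CAGGNGGC, on either strand (GCCNCCTG on the other), was in 2 of the 28 (7.14%, 1.98 to 22.7) and in 3.41% of the 1026 desert windows without a site, beside 9.71% of all 32851 windows. Its looser form CAGNNGGC was in 25.0% of the 28, in 16.7% of the 1026 and in 25.9% of all. A longer search was added after these values were seen. The CTCF core motif, 12 letters with at most 1 mismatch on either strand, which overlaps the shorter ones, was in 5 of the 28 (17.9%, 7.88 to 35.6), in 2.24% of the 1026 and in 4.33% of all windows. In windows of other lncRNAs with a site the core motif was in 18.6%, CAGGNGGC in 16.8% and CAGNNGGC in 35.4%. The 2 shorter motifs were thus less frequent in the 28 desert windows, at 7.14% and 25.0%. With so few windows their intervals (1.98 to 22.7 and 12.7 to 43.4) still cover the values of the other lncRNAs. The 5 windows with the core motif are shown because they let a reader see the sequence under a desert peak. Each is the stretch shared by window and peak, on the strand of the lncRNA, with the motif in capitals. For Gm13652 (chr2:75137926-75138225, minus strand, 261.1 kb from the nearest gene, between Mtx2 and Gm50595) and for 1700007F19Rik (chr3:58163758-58164057, minus strand, between Pfn2 and Tsc22d2), the site was in all 15 CTCF lists and in the SMARCA5 list. For Gm46796 (chr3:6106767-6106988, plus strand) it was in all 15 CTCF lists without SMARCA5. For Mir100hg (chr9:41474643-41474942, plus strand), the host transcript of a microRNA cluster, it was in the SMARCA5 list and in every CTCF list except day 12 with Ctcf shRNA. For Gm2516 (chr8:50367862-50368161, plus strand) it was in the 2 ESC CTCF lists and in no other.
Gm13652: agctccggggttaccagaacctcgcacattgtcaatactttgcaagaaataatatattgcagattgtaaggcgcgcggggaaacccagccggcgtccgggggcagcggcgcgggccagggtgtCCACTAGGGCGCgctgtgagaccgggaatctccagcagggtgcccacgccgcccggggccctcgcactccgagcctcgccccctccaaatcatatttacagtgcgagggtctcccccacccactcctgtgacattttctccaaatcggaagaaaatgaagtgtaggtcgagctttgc
1700007F19Rik: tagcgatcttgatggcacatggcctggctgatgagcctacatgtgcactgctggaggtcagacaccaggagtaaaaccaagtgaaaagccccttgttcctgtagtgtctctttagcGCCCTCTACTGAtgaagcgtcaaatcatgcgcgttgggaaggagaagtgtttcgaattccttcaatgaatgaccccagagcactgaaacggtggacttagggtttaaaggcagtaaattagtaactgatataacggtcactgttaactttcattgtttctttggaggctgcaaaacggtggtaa
Gm46796: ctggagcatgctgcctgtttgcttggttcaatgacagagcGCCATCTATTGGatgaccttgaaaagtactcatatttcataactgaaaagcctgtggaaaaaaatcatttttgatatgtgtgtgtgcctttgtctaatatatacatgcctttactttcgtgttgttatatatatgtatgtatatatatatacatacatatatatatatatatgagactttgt
Mir100hg: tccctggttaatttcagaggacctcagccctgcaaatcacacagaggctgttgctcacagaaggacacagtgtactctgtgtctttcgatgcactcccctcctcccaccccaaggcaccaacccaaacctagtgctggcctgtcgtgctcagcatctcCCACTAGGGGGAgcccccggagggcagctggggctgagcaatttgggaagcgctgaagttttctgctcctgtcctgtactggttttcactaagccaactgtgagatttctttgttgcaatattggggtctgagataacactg
Gm2516: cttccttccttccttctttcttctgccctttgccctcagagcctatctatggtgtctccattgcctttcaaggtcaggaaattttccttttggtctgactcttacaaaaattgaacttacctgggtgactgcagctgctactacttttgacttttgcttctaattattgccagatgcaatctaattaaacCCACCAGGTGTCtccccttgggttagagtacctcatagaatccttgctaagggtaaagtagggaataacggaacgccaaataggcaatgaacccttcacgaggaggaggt
Of the 28 sites in desert lncRNA windows, 8 were in all 15 lists, beside 10.7% of all desert sites and 19.9% of all wild-type ESC peaks. A match here is a description of letters and no measure of binding. The lncRNA Firre, an X-linked RNA whose locus is known for its row of CTCF sites, also had a site at its start (chrX:50635275-50635674). It was in 12 lists, missing from both day 0 lists and from SSEA1+ cells with Ctcf shRNA, and it overlapped SMARCA5. Its closest match to the motif within the shared stretch had 2 mismatches.

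The deserts were thinly but unevenly occupied. The median site lay 370.3 kb from the nearest gene, the upper quartile 581 kb and the farthest 2207 kb, with 1411 sites beyond 500 kb and 410 beyond 1000 kb. The ground more than 200 kb from genes came to 542.3 Mb in 913 intervals and held 8.04 sites per Mb, against 44.6 per Mb within 1032 Mb of gene spans. No site was found in 259 of the 913 intervals. In the other 654 the median was 5 sites and the highest 63, and 127 intervals held 50% of the sites. Desert sites stood farther apart, with a median of 27.9 kb to the next CTCF peak against 6.57 kb inside genes, and 25.1% had another peak within 10 kb against 67.1%. Of the desert sites, 612 (13.99%) overlapped the span of a lncRNA, against 5.45% of in-gene sites, 16.2% of the sites between and 10.1% of all, so the desert share lay below that of the other sites outside genes.

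The interval between Gm4868 and Tmem132c on chromosome 5 (1.39 Mb) held the most desert sites, 63. Of these, 62 were in the knockout list, 41 in the day 12 control list, 18 in the day 0 control list, 16 in the SMARCA5 list and 10 in the day 10 OSKM list. In the same order, the shares over all desert sites were 98.4%, 49.8%, 24.6%, 22.9% and 35.5%. Over all wild-type ESC peaks they were 97.1%, 59.6%, 33.3%, 48.6% and 49.8%. Over the 0.992 Mb of it more than 200 kb from genes it held 63.5 sites per Mb, above the 44.6 of gene spans on average. The 3 longest intervals were much sparser, with 5.72 to 7.48 sites per Mb counted the same way. Between Pcdh20 and Pcdh9 on chromosome 14, genes of cell adhesion proteins of the protocadherin family, 4.54 Mb held 31 sites. Of these, 11 overlapped SMARCA5, 17 were in no list outside ESCs and 5 were in all 15 CTCF lists. Between Celf4, which encodes an RNA-binding protein of neurons, and Pik3c3 (4.51 Mb) there were 24 sites, and between Olfm4 and Pcdh17 (4.42 Mb) there were 23, of which 15 were in no list outside ESCs. In the immunoglobulin heavy chain interval 24 of the 50 sites were in no list outside ESCs, 2 were in the day 0 control list and 21 in the day 12 control list. Sites in no list outside ESCs made up 29.3% of all desert sites and 19.7% of all wild-type ESC peaks. Those in all 15 lists made up 10.7% and 19.9%. Single intervals were not tested against these shares.

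**Figure D1:**
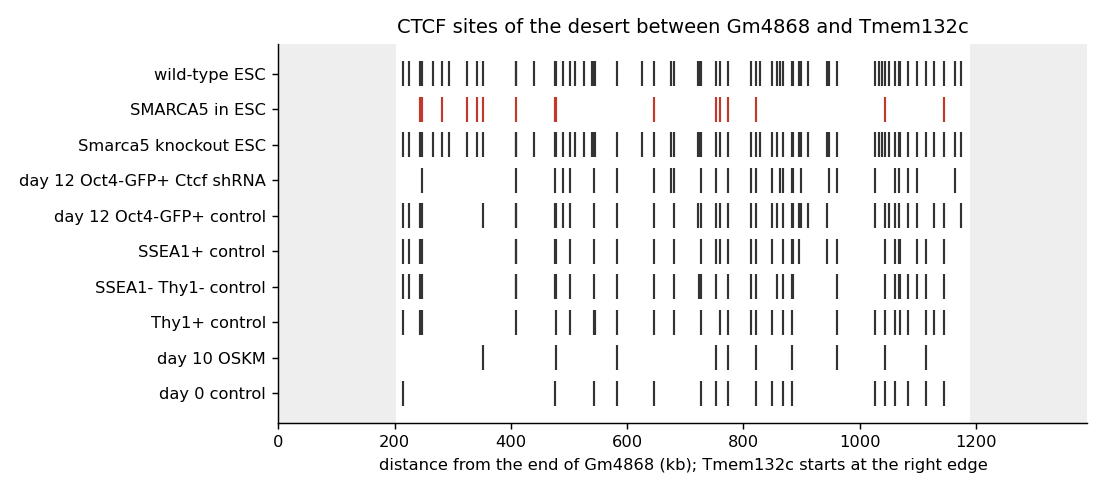
Positions of the 63 desert CTCF sites between Gm4868 and Tmem132c, as distance in kb from the end of Gm4868. Each tick is a wild-type ESC site found in the list named on the left, SMARCA5 is in red, and the grey margins are the 200 kb next to each gene. Of the 63 sites the Smarca5 knockout list holds 62, the day 0 control 18 and the day 10 OSKM list 10. Peaks that the wild-type list lacks are not drawn, so the rows show loss of sites and no gain.

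SMARCA5 was found at fewer desert sites than sites in genes. It overlapped 1000 of the 4374 desert sites (22.9%, 21.6 to 24.1), 52.0% of in-gene sites and 47.2% of the sites between, beside 48.6% of all wild-type ESC peaks. The difference from in-gene sites was -29.2 points (Newcombe 95% interval -30.5 to -27.8), and desert sites had the lower share on 20 of the 20 chromosomes with at least 20 of them. Among autosomes the desert share ran from 9.09% on chromosome 19 to 32.4% on chromosome 13. On the X chromosome it was 6.02% (8 of 133), beside 21.6% of in-gene sites there. The share declined with distance in steps, from 52.0% both inside genes and within 10 kb of them to 33.1% at 100 to 200 kb, 26.9% at 200 to 300 kb, 23.5% at 300 to 500 kb, 17.98% at 500 to 1000 kb and 17.6% (14.2 to 21.5) beyond that. The threshold fell within this decline: of 453 sites at 180 to 200 kb from a gene 33.1% overlapped SMARCA5, and of 367 at 200 to 220 kb 28.9%.

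Seen from the SMARCA5 list, 1216 of its 46965 peaks (2.59%, 2.45 to 2.74) lay in deserts, the lowest share of any list. Of these, 216 (17.8%, 15.7 to 20.0) had no wild-type CTCF peak, against 14.9% of in-gene SMARCA5 peaks. The knockout ESC list had a CTCF peak at 80 of the 216 (37.0%, 30.9 to 43.7), against 49.8% in genes.

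**Figure D2:**
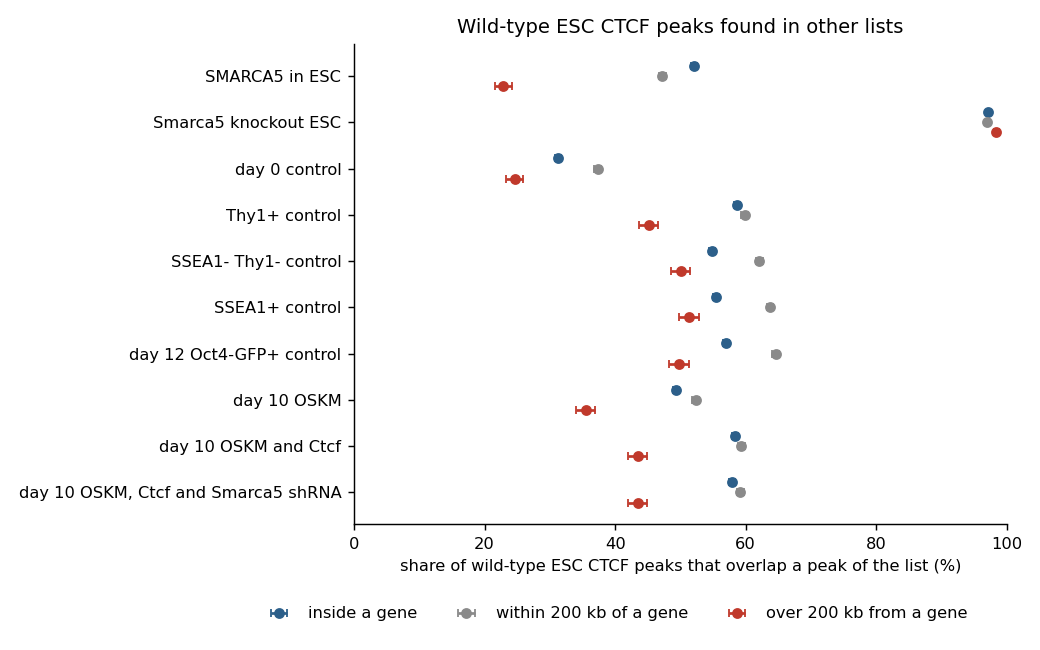
Share of wild-type ESC CTCF peaks (percent, with Wilson 95% intervals) that overlap a peak of each list named on the left, for desert sites (red), in-gene sites (blue) and sites between (grey). Desert sites lie to the left of both other classes in every list except the Smarca5 knockout ESCs, with the widest gap for SMARCA5 (22.9% against 52.0%).

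**Figure D3:**
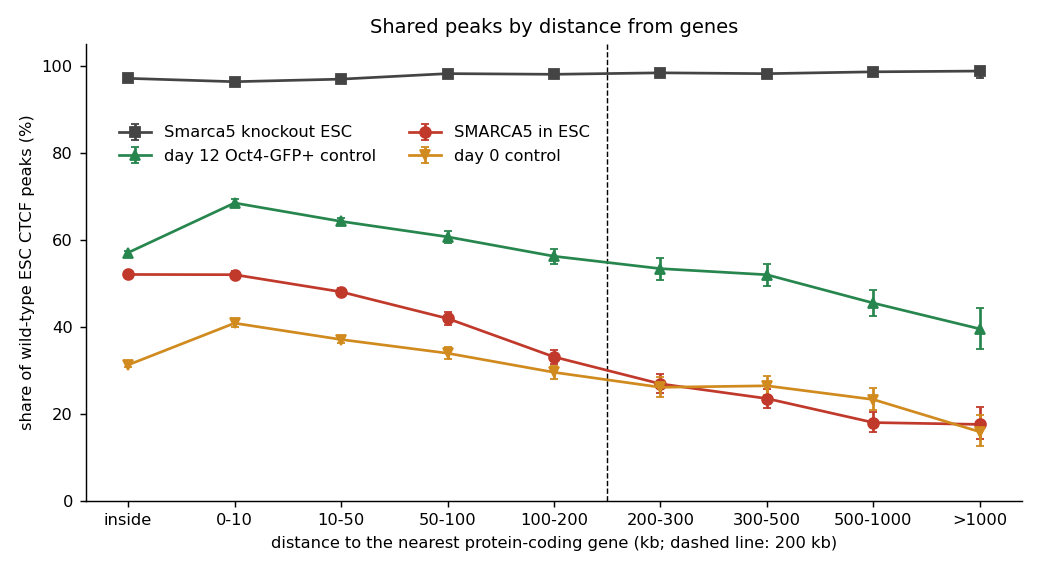
Share of wild-type ESC CTCF peaks (percent, with Wilson 95% intervals) found in 4 lists, by distance in kb to the nearest protein-coding gene. SMARCA5 declines from 52.0% to 17.6%, the day 12 and day 0 control lists are highest within 10 kb of genes and decline beyond, and the knockout list stays above 96% in each class (96.3% to 98.8%).

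Nearly the whole set of desert sites was also in the peak list of the Smarca5 knockout ESCs. The wild-type and knockout lists used one set of interval positions, and each came from 1 sample. The knockout list was the longer, with 89567 peaks against 83173. What part this has in the shares below was not tested. In the knockout ESCs 4304 of 4374 desert sites were found (98.4%, 98.0 to 98.7), against 97.1% of in-gene sites and of all sites (background 97.1%). The difference was 1.30 points (0.857 to 1.67), with a desert share at least as high as in genes on 18 of 20 chromosomes. The 70 desert sites absent from the knockout list were 1.60% of the desert sites, beside 2.90% in genes and 2.88% of all. SMARCA5 overlapped 7 of them (10%), against 36.45% of the absent sites in genes and 33.1% of all absent sites. Among desert sites that did overlap SMARCA5, 993 of 1000 were found in the knockout list (99.3%), against 98.1% of those that did not, and in genes 98.0% against 96.2%. The knockout list also had 466 desert peaks that the wild-type list lacked. They were 9.77% of its 4770 desert peaks, beside 10.7% in genes and 9.81% of all its peaks, and 17.2% of them overlapped SMARCA5 against 38.7% in genes. A 400 bp interval without a height cannot show a partial loss of binding.

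The farthest site missing from the knockout, between Lrrc4c, a synaptic adhesion gene, and Iftap (chr2:99727175-99727574), lay 1833 kb from the nearest gene and was in the wild-type ESC list alone of the 15. The next, between Cox7c and Edil3 (chr13:87435594-87435993), was in 2 lists. On day 10 of reprogramming, 431 of 2049 desert peaks with added Ctcf were absent with OSKM alone (21.03%, 19.3 to 22.8), against 19.2% in genes and 17.3% of all peaks. When an shRNA against Smarca5 was added, 22 of the 2049 were absent (1.07%, 0.710 to 1.62), against 2.22% in genes and 1.72% of all. Of the 22, 0 overlapped the ESC SMARCA5 list, which allows a share of up to 13.6%. The shares of such absent peaks at SMARCA5 were 41.3% in genes and 36.2% of all. The group with Smarca5 shRNA had 1 sample.

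Desert sites of ESCs were less often present in fibroblasts and reprogramming cells than in-gene sites. In the day 0 control list 1076 were found (24.6%, 23.4 to 25.9), against 31.2% in genes and 33.3% of all sites, a difference of -6.63 points (-7.95 to -5.26). In the day 10 OSKM list 35.5% were found against 49.3% in genes and 49.8% of all, a difference of -13.9 points (-15.4 to -12.4). With added Ctcf 43.4% were found, against 58.3% in genes and 57.9% of all, and with added Ctcf and Smarca5 shRNA also 43.4%, against 57.9% in genes and 57.6% of all. Among the sorted controls the desert share was 45.2% in Thy1+ cells, against 58.7% in genes and 58.4% of all. It was 50.0% in SSEA1- Thy1- cells against 54.8% in genes and 57.4% of all, and 51.3% in SSEA1+ cells against 55.4% in genes and 58.5% of all. In day 12 Oct4-GFP+ cells it was 49.8% against 57.0% in genes and 59.6% of all.

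The Thy1+ difference (-13.5 points) was larger than those of the other sorted controls (-4.13 to -7.24), and the mean over the 4 lists was -7.41, or -5.38 without the Thy1+ list. The size of these differences hung on what the desert sites were compared with. Against sites outside genes but within 200 kb of them, the day 0 difference was -12.7 points and the mean over the sorted lists -13.5, and with a limit of 100 kb for a desert that mean was -4.63. Counted within each list, deserts held 4.02% of the day 0 control peaks, 3.75% of the day 10 OSKM peaks, and 4.14% to 4.65% of the sorted control peaks, against 5.26% in wild-type and 5.33% in knockout ESCs. Of the desert peaks called in those control lists, 90.7% to 95.3% overlapped a wild-type ESC peak, against 91.8% to 96.1% of their in-gene peaks.

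Of the desert sites 466 were in all 15 lists (10.7%, 9.77 to 11.6), against 18.01% of in-gene sites, 23.7% of those between and 19.9% of all. At the other end 1280 were in no list outside ESCs (29.3%, 27.9 to 30.6), against 19.9% in genes, 18.2% between and 19.7% of all, and 27 of these were in the wild-type list alone (0.617%, against 0.934% of all). Sites of the day 0 and all 4 sorted control lists numbered 949 in deserts (21.7%, against 28.8% in genes and 31% of all), and 1537 were in none of these 5 lists (35.1%, against 26.8% in genes and 25.9% of all). Desert sites of the day 12 control list that both the day 0 and the Thy1+ control lists lacked numbered 592 (13.5%, 12.5 to 14.6), against 10.1% in genes and 11% of all. The reverse pattern, in the Thy1+ and not the day 12 control list, was held by 401 (9.17%, 8.35 to 10.1), against 12.0% in genes and 10.1% of all. SMARCA5 overlapped 51.7% of the desert sites found in all 15 lists and 13.4% of those in no list outside ESCs, while the in-gene values were 74.3% and 36.9%. The desert share was the lower one at each end. The sites in all 15 lists that lay farthest from a gene were between Pcdh20 and Pcdh9 (chr14:90433152-90433551, 1962 kb away) and between Lrrc4c and Iftap (chr2:99236954-99237353, 1605 kb away), and SMARCA5 overlapped both.

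**Figure D4:**
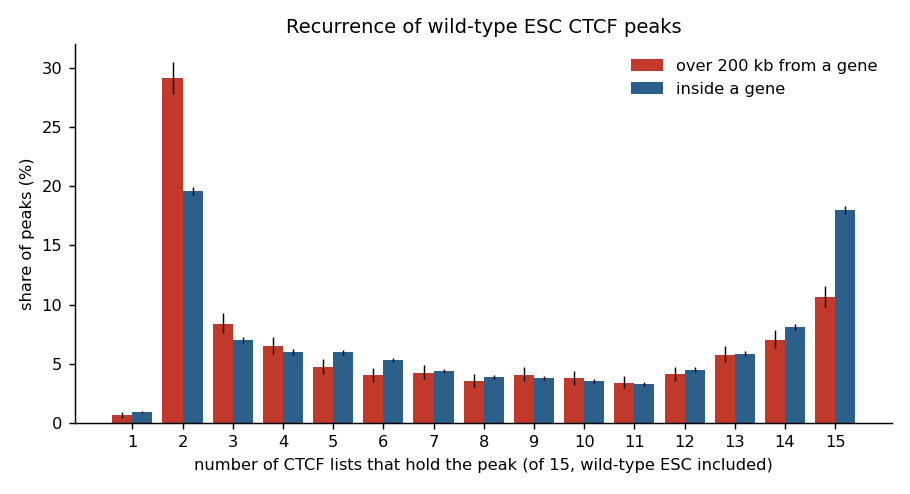
Share of desert sites (red) and in-gene sites (blue) by the number of CTCF lists that hold them, out of 15 with the wild-type ESC list included; lines are Wilson 95% intervals. Desert sites are more often in 2 lists (29.1% against 19.6%) and less often in all 15 (10.7% against 18.01%).

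Sites with and without SMARCA5 differed in how widely CTCF was found, in deserts and in genes alike. With SMARCA5 (1000 sites), 43.0% were in the day 0 control list, 57.2% in the day 10 OSKM list and 69.3% in the day 12 control list. Without it (3374 sites) the shares were 19.1%, 29.0% and 44.0%. The in-gene shares were 40.4%, 61.9% and 65.3% with SMARCA5 and 21.2%, 35.7% and 48.1% without. Sites in a lncRNA span overlapped SMARCA5 more often than other desert sites (29.4%, 25.9 to 33.1, against 21.8%, 20.5 to 23.1), where in genes the shares were 58.7% and 51.6%. The day 0 shares of desert sites in and outside lncRNA spans were 30.6% and 23.6%, those of in-gene sites 31.8% and 31.2%. Having another CTCF peak within 10 kb went with a SMARCA5 share of 27.5% (25.0 to 30.2) against 21.3% (19.9 to 22.7), and in genes of 54.2% against 47.7%.

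The share of sites kept under Ctcf shRNA asked how stable CTCF was at desert sites when its own level was targeted. In day 0 cells 697 of the 1076 desert sites of the control list were also in the Ctcf shRNA list (64.8%, 61.9 to 67.6), against 74.2% in genes and 75.1% of all sites. In Thy1+ cells 1612 of 1975 were kept (81.6%, 79.8 to 83.3), against 80.6% in genes and 83.1% of all. In SSEA1- Thy1- cells 77.7% were kept against 82.3% in genes and 83.6% of all, and in SSEA1+ cells 76.3% against 83.1% in genes and 83.9% of all. In day 12 Oct4-GFP+ cells 1099 of 2178 were kept (50.5%, 48.4 to 52.6), against 57.4% in genes and 59.7% of all.

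The differences from in-gene sites were -9.41 points (-12.4 to -6.52) on day 0, 1.00 (-0.829 to 2.71) in Thy1+, -4.58 (-6.43 to -2.82) in SSEA1- Thy1-, -6.82 (-8.68 to -5.05) in SSEA1+ and -6.94 (-9.12 to -4.76) in day 12 cells. Their mean was -5.35 ± 3.94 points (SD, n = 5 pairs), negative in 4 of 5, and flipping the signs of the pairs in every way (exact permutation test, two-sided) gave p = 0.125, where 5 pairs cannot give less than 0.0625. The pairs are different cell populations scored at the same wild-type ESC sites, so they are not independent replicates. Compared only among sites held by equally many control lists made with other interval positions, the mean was -1.72 points (exact sign-flip permutation p = 0.188), with the 5 pairs between -4.96 and 2.36. Other choices gave larger differences: -9.59 points against sites outside genes but within 200 kb (exact sign-flip permutation p = 0.0625, negative in 5 of 5), -8.88 for sites beyond 500 kb (exact p = 0.0625) and -10.6 with all annotated genes as bounds (exact p = 0.125). Without the Thy1+ pair the mean was -6.94. Among sites held by equally many control lists, the difference was -4.96 points on day 0, 2.36 in Thy1+ and -0.358 in SSEA1- Thy1- cells. It was -2.77 in SSEA1+ and -2.90 in day 12 cells. The part of recurrence in the difference was not tested. The share kept also differed within deserts. In day 12 cells 63.8% (60.1 to 67.3) of sites with SMARCA5 were kept and 44.2% (41.7 to 46.8) of those without, while the in-gene shares were 63.4% and 48.6%. On day 0 they were 75.8% and 57.4% in deserts and 79.3% and 63.7% in genes. The split by SMARCA5 thus stood in both classes, and among day 12 sites with SMARCA5 the desert and in-gene shares lay within each other's counting error. By distance, the day 12 share kept was 54.0% (50.6 to 57.4) at 200 to 300 kb from a gene, 48.7% at 300 to 500 kb, 51.0% at 500 to 1000 kb and 38.9% (31.7 to 46.6) beyond that, with no steady decline between.

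**Figure D5:**
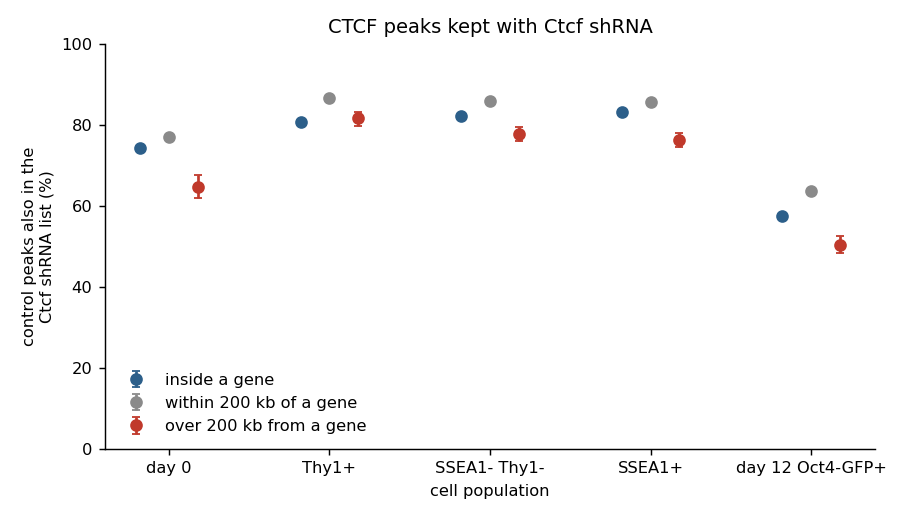
Share of control-list sites (percent, with Wilson 95% intervals) that are also in the Ctcf shRNA list of the same cell population, for desert sites (red), in-gene sites (blue) and sites between (grey). Desert sites are lowest in 4 populations (for example 50.5% against 57.4% in genes on day 12) and lie beside in-gene sites in Thy1+ cells (81.6% and 80.6%).

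All 4 sorted control lists held 1474 desert sites (33.7%, against 42.0% in genes and 44.5% of all). Of these, 802 (54.4%, 51.9 to 56.9) were in all 4 Ctcf shRNA lists, against 63.6% in genes. As a share of the whole class this was 18.3% in deserts, 26.7% in genes and 29.2% of all sites. Another 18 were in none of the shRNA lists (1.22% of the 1474, 0.774 to 1.92), against 0.832% in genes, or 0.412% of desert sites beside 0.337% of all sites. The farthest of the 18 lay between Tenm3, a teneurin adhesion gene, and Aga (chr8:51487639-51488038, 1965 kb away) and overlapped SMARCA5. Desert sites also turned up only with Ctcf shRNA. There were 240 on day 12, which was 17.9% of the desert sites in that shRNA list, against 11.2% in genes, but in the other populations the shares lay near the in-gene ones. They were 8.05% (61 sites) against 7.70% in genes on day 0, 5.84% (100) against 4.499% in Thy1+, 4.44% (79) against 4.90% in SSEA1- Thy1- and 3.77% (67) against 3.96% in SSEA1+ cells.

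The genes at the edges of occupied deserts were read from 3 lists, drawn up with knowledge that such genes often flank deserts, so the number that adjoin one is no finding. Of all 21887 protein-coding genes, 1165 adjoined a desert that held a CTCF site (5.32%). Of 33 developmental transcription factors 26 did, of 34 cadherin, protocadherin and synaptic adhesion genes 28, and of 30 pluripotency network genes 7. Neighbouring members share deserts, and the sites below are counted once per list.

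The deserts next to pluripotency genes held 83 sites in 8 intervals. SMARCA5 overlapped 36 of them (43.4%), beside 22.9% of all desert sites and 48.6% of all wild-type ESC peaks. The day 0 control list held 14 (16.9%, beside 24.6% of all desert sites) and the day 12 control list 44 (53.0%, beside 49.8%). Tbx3, a T-box factor of the naive ESC network, had 21 desert sites towards Med13l, of which 11 overlapped SMARCA5, 1 was in the day 0 control list, 10 were in the day 12 control list and 20 in the knockout list. Sox2, an OSKM factor and core regulator of ESCs, had 17, with 10 at SMARCA5, 6 in the day 0 control list and 9 in the day 12 control list. Nr5a2, a nuclear receptor that drives Oct4 expression in the early embryo, had 16, with 7 at SMARCA5 and 3 in the day 0 list. Jarid2, a subunit of the Polycomb complex PRC2, also had 16, with 6 at SMARCA5 and 1 in the day 0 list. The other members, Klf4, Klf5 and Tet2, had 7, 4 and 2 sites, of which 1, 0 and 1 overlapped SMARCA5, so the overlaps lay mostly in the intervals named before. Genes around a desert were not tested against each other, and 21 sites of the Tbx3 interval and 17 of the Sox2 intervals also belong to the developmental list.

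The deserts next to developmental transcription factors held 271 sites, of which 60 overlapped SMARCA5 (22.1%), 65 were in the day 0 control list (24.0%) and 146 in the day 12 control list (53.9%). Over all desert sites these shares were 22.9%, 24.6% and 49.8%, and over all wild-type ESC peaks 48.6%, 33.3% and 59.6%. The SMARCA5 and day 0 shares thus lay near those of all desert sites. Myc, the growth regulator and a member of OSKM, had 26 sites, with 5 at SMARCA5 and 6 on day 0. Zeb2, a repressor that promotes the mesenchymal state, had 22, with 4 at SMARCA5 and 8 on day 0. The adhesion gene deserts held the most sites, 548. Of these, 100 overlapped SMARCA5 (18.2%), 121 were in the day 0 control list (22.1%) and 231 in the day 12 control list (42.2%). Each share lay below that over all desert sites. No list outside ESCs held 224 of the sites. That is 40.9% of the 548, beside 29.3% of all desert sites and 19.7% of all peaks. Pcdh9 had 44 sites, of which 27 were in no list outside ESCs, while the neuronal cadherin Cdh8 had 38 with 10 such sites. Cdh9 and Pcdh7 had 37 each, with 4 and 8 at SMARCA5. Between Pcdh7 and G6pd2, the site chr5:59996791-59997190, 1812 kb from a gene, overlapped SMARCA5 and was in 13 lists, missing from the Ctcf shRNA lists of day 0 and day 12.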

How the data were processed

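The deposited files are 16 lists of CTCF or SMARCA5 peaks, each peak an interval of 400 bp, from 31 samples in 16 groups. The score that the authors deposited for each peak is 0 in every line, so peaks could not be ranked by strength. The submitters' processing notes name MACS2, HOMER, Bowtie2, Trim Galore, FastQC, Picard, SAMtools, bedtools and deepTools and the build mm10 (GRCm38). The sources used here do not state thresholds, pooling or versions.

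Distances were taken to merged spans of 21887 protein-coding genes of RefSeq GRCm38.p6 on 21 chromosomes. They hold for this gene table. Lists were compared by overlap of at least 1 bp, shares have Wilson 95% intervals, differences have Newcombe 95% intervals, and the 5 shRNA pairs by an exact permutation of signs, two-sided. With 1 list per group, replicates could not be compared. Distance, overlap and intervals were tested on simulated data. Named sites are up to 2 farthest in each of 5 classes, named intervals the 5 with most sites and the 3 longest, and named genes up to 4 per list (Klf4, Klf5, Tet2, Firre and the other lncRNAs were chosen after their values were seen). Some items that this rule names are not reported here. The sites, lists and tests were chosen with earlier results of these data known. Alternatives changed the overlap, distance limit, gene classes, chromosomes, comparison class and pairs. Computations used Python 3.11.15, NumPy 2.4.6, pandas 2.3.3, SciPy 1.17.1 and matplotlib 3.10.9.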

Additional observations from a re-analysis of the deposited data

Results flagged for a closer look

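Thy1+ cells stood apart in the share of control sites kept with Ctcf shRNA. There desert sites were kept 1.00 point more often than in-gene sites (-0.829 to 2.71), while in the other 4 populations the difference was negative (-4.58 to -9.41). Against sites outside genes but within 200 kb of them, the Thy1+ difference was -5.08 points (-6.91 to -3.37), negative as in the other 4 (-8.16 to -13.2), so the sign that set Thy1+ apart held for the in-gene comparison alone. This contrast between populations was not tested. The descriptions tie to each Thy1+ list 1 day 3 sample whose title names the other shRNA, and the part of that in the result was not tested.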

How the results depend on the processing

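Of 60 alternatives to 7 results, 34 stayed within the counting error or on the same side of the test, 26 moved further, and 0 changed direction. For the Ctcf shRNA result the same side meant p above 0.05 in the exact sign-flip permutation test. With 5 pairs or fewer, p cannot fall below 0.0625. None of its alternatives could change side, so their place among the 34 says nothing of stability. A reciprocal overlap of 50% left the SMARCA5 and knockout differences at -29.2 and 1.30 points. It could not move them, since the ESC lists used one set of interval positions. With a distance limit of 100 kb (7781 sites), the desert minus in-gene difference was -24.7 points for SMARCA5, -4.47 for day 0, -10.5 for day 10 and -4.63 for the sorted controls, and the desert share was 9.36%. With 500 kb (1411 sites) these were -34.2, -10.1, -20.7, -13.1 and 1.70%. With all annotated genes as bounds (356 sites) they were -34.8, -11.0, -20.8, -12.0 and 0.428%. Against sites outside genes but within 200 kb they were -24.4, -12.7, -16.9 and -13.5. Within classes of equal recurrence the SMARCA5 difference was -26.8 and the knockout difference 1.75. The following were chosen after seeing the data. SMARCA5 gave -22.6 among sites in all 15 lists and -20.1 within classes of equal spacing, the knockout 1.83 within sites with and without SMARCA5, and the sorted controls -5.38 without the Thy1+ list. With antigen receptor segments counted as genes the desert share was 5.10% and the mean over the shRNA pairs -4.93 points. The other results moved by less than the counting error.

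Leaving out each shRNA pair gave means of -6.94 to -4.34 points, lowest without the Thy1+ pair, and the mean was -3.07 with a limit of 100 kb, -8.88 with 500 kb, -10.6 with all annotated genes, -9.59 against sites outside genes but within 200 kb and -1.72 within classes of equal recurrence. Between single samples, no paired analysis was possible because samples of a group are merged in 1 list. Each of the 5 pairs above is a whole control list and a whole shRNA list of one cell population. The share of sites with a CTCF motif was not computed, since it needs a genome sequence. Limits remain: lists carry no signal, depth is unknown, interval positions are shared within and not between sets of lists, and the gene table decides what a desert is.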
